A study of Danio rerio with 6 samples.

Results

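Splicing removes introns from the transcripts of nearly every protein-coding gene and joins the exons that remain. It is done by the spliceosome, which assembles on each intron from small nuclear ribonucleoproteins (snRNPs), particles made of a short nuclear RNA, a ring of Sm or LSM proteins and proteins particular to the particle. The U1 snRNP reads the start of the intron, the U2 snRNP with its SF3A and SF3B subcomplexes holds the branch point, and the U4/U6.U5 tri-snRNP, which contains most of the PRPF proteins, brings in the parts of the catalytic centre. SR proteins bind exons and favour their inclusion, hnRNP proteins coat nascent transcripts and often favour skipping, and PTBP proteins bind pyrimidine-rich stretches, so that these regulators set which exons a tissue keeps. The levels of these genes were compared between the proximal intestine of zebrafish with short bowel syndrome (SBS) and that of sham-operated zebrafish.

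The splicing genes were taken by name: all genes whose symbol starts with sf3a, sf3b, snrp, srsf, prpf, hnrnp, u2af, lsm with a digit from 1 to 8 after it, sart, cwc, tra2 or ptbp, and rbm8, rbm17, rbm22, rbm25 and rbm39. This gave 99 of 12398 genes, and the name rule itself uses no measured value. They were divided into 39 core snRNP genes (Sm, LSM ring, SF3A, SF3B, PRPF and SART), 41 regulators (SR, TRA2, hnRNP and PTBP) and 19 associated genes (U2AF, CWC, RBM and the remaining LSM genes). The name rule also takes in lsm1, lsm12a, lsm12b, lsm14aa, lsm14ab and lsm14b, whose products are best known from the cytoplasm rather than from the spliceosome, and these were kept apart from the LSM ring. The symbols lsm2, lsm3, sf3b1 and prpf19 fit the name rule but were not among the 12398 genes. Genes named snrnp, such as snrnp70, fall outside the name rule and are described with the rest of the pathway.

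All fish were adult male wild-type zebrafish of the Ekk line. SBS fish had lost the middle of the intestine, with a stoma placed upstream and the bowel tied off downstream, and sham fish had only a ventral laparotomy in which the bowel was left untouched. Full-thickness proximal intestine (segment S1) was taken 2 weeks after surgery, so that epithelium, muscle, blood and any adhering tissue were sequenced together, and for each group the samples richest in RNA were chosen for libraries. Of the 6 deposited columns, those of SBS replicates 1 and 2 held the same count in 12488 of 12488 rows and were therefore treated as a single library. The comparison was between 2 SBS libraries, called SBS replicates 1 and 3, and 3 sham libraries. The labels do not say whether each library came from a single fish, but the study states that 3 fish of each group were harvested for sequencing. The tests measure only the spread between these libraries.

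Gene counts summed to 20377652 and 38867364 reads in SBS replicates 1 and 3, and to between 38728394 and 47142289 reads in the sham libraries. Every count of SBS replicate 1 was even. Markers of absorptive enterocytes were present in all libraries, as the labelled tissue requires, but their summed level was 5921 and 20036 RPKM in SBS replicates 1 and 3, against 113995, 51897 and 89240 RPKM in sham replicates 1, 2 and 3. RPKM here is a read count scaled for transcript length and library size, with TMM factors between libraries, which assume that most genes do not differ. Of 18 hepatocyte markers tested, 15 were called higher in SBS, and the 18 summed to 12765 and 4052 RPKM in SBS and 1004 to 1706 RPKM in sham. Most of the sham sum came from apobb.1, the 1 marker with a negative log2 fold change. It had 209 and 362 RPKM in SBS, against 909, 1216 and 1450 RPKM in sham. Cell cycle markers summed to 200 and 419 RPKM in SBS replicates 1 and 3 and to 49.9, 210 and 81.1 RPKM in sham replicates 1, 2 and 3. In whole tissue, fewer cells of a type and less RNA per cell cannot be told apart. The part of these shifts in any value given for the splicing genes was not tested.

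The splicing genes were expressed throughout. All 99 passed the filter on low counts, and each had at least 10 counts in every library. Of the 99, 88.9% lay above the median level of all genes, against 50% of all genes, 51.5% lay among the top 25% of genes, and 2 lay among the lowest 25%. The mean level in sham spanned 292-fold across the genes. The most abundant transcripts were those of hnRNP genes: hnrnpa0l averaged 284 RPKM in SBS and 290 RPKM in sham, and hnrnpaba averaged 193 RPKM in SBS and 163 RPKM in sham. Next in sham was snrpb, which encodes SmB of the Sm ring, with 142 RPKM in SBS and 129 RPKM in sham. The least abundant was hnrnpa3, with 0.211 RPKM in SBS and 0.993 RPKM in sham.

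No splicing gene passed the test for a difference between SBS and sham when libraries were scaled by TMM. A gene was called when edgeR's quasi-likelihood test gave a Benjamini-Hochberg adjusted p under 0.05 over all 12381 genes tested and the log2 fold change of SBS over sham was at least 1.5 or at most −1.5. By this rule 0 of the 99 splicing genes were called, against 4.55% of all genes (2.49% higher and 2.06% lower), and without the fold limit 0 splicing genes passed, against 4.76% of all genes. At an unadjusted p under 0.05 there were 10 splicing genes, which is 10.1% of them, against 28.9% of all genes. Of these, 5 had higher values in SBS, against 15.7% of all genes, and 5 had lower values, against 13.1%. The other tests and a correction for unwanted variation were more liberal. Each called 1 splicing gene, hnrnpa3, as lower in SBS, whereas edgeR's likelihood ratio test called 15.6% of all genes (5.78% lower), DESeq2's Wald test 15.4% (6.26% lower) and the RUVg fit 13.8% (5.98% lower).

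The fold changes themselves were small. The median log2 fold change of the 99 genes was 0.07, with quartiles of −0.21 and 0.28, and that of all genes tested was 0.00. By level it was −0.25 for the top 25% of all genes, which held 51 of the 99, and −0.03 for the next 25%, which held 37. The median size of the log2 fold change regardless of sign was 0.24 for the splicing genes and 0.67 for all genes. Of the 99, 76 had a log2 fold change between −0.5 and 0.5, a share of 76.8% against 40.2% of all genes, and 5 had one of at least 1 in size, a share of 5.05% against 35.8%. A missed threshold is not evidence of equal levels, so the 95% intervals were read as well. They lay within −1.5 to 1.5 for 91 of the 99 genes (91.9%, against 38.4% of all genes), the exceptions being snrpa1, lsm6, lsm14b, tra2b, hnrnpa0a, hnrnpa3, hnrnph3 and ptbp1b, and within −1 to 1 for 56 of the 99 (56.6%, against 15.2%). The median SD between the sham libraries was 0.18 on the log2 scale for the splicing genes and 0.31 for all genes.

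**Figure D1:**
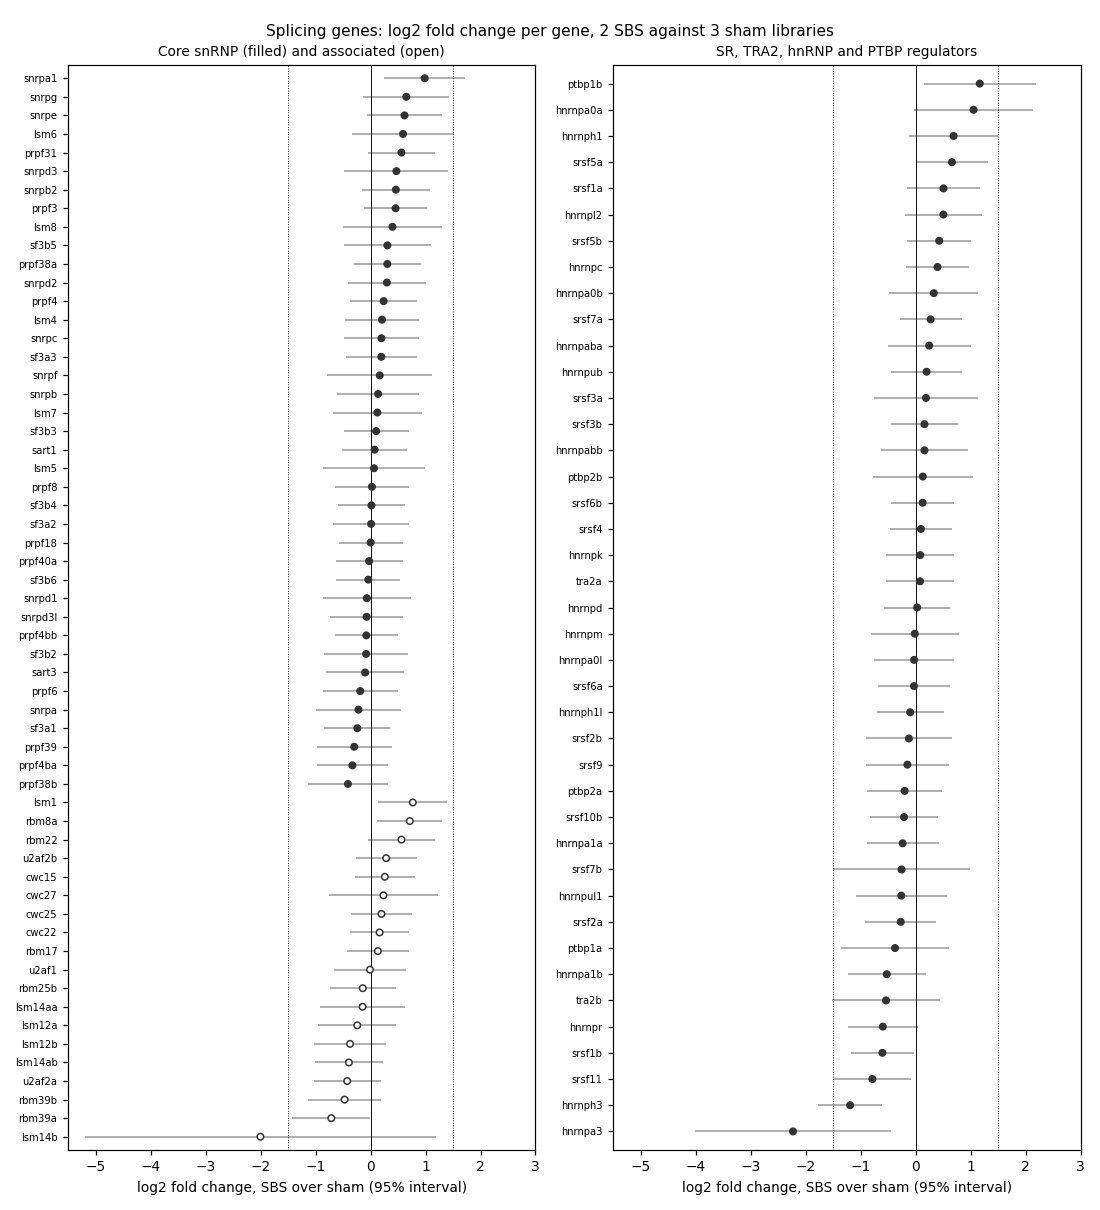
Log2 fold change of SBS over sham for each of the 99 splicing genes (points) with its 95% interval (lines), for 2 SBS and 3 sham libraries, with filled points for core snRNP genes and regulators and open points for associated genes. The dotted lines mark the fold limits of −1.5 and 1.5, and the points of 2 genes, hnrnpa3 and lsm14b, lie beyond them with intervals that reach back inside.

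Core snRNP genes and regulators were then set side by side, as the chosen grouping asks. The median log2 fold change was 0.10 for the 39 core genes, of which 26 had a positive value, 0.02 for the 41 regulators, of which 21 were positive, and −0.01 for the 19 associated genes. The sum of the core genes was 979 and 1384 RPKM in SBS replicates 1 and 3, against 973, 1155 and 1092 RPKM in sham replicates 1, 2 and 3. That of the regulators was 1798 and 1977 RPKM in SBS, against 1662, 1794 and 1965 RPKM in sham. The ratio of core to regulator transcripts was 0.544 and 0.700 in SBS replicates 1 and 3, against 0.586, 0.644 and 0.556 in sham replicates 1, 2 and 3, so that the SBS values lay on either side of all sham values. Without SBS replicate 1 the median was 0.28 for the core genes, 0.09 for the regulators and −0.06 for all genes, and without SBS replicate 3 it was −0.08 for the core genes, −0.10 for the regulators and −0.09 for all genes. Relative to all genes the core genes stood at 0.34 without SBS replicate 1 and 0.004 without SBS replicate 3, and the regulators stood at 0.14 without SBS replicate 1 and −0.01 without SBS replicate 3.

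Groups that did not overlap were also counted. For 22 of the 99 genes both SBS values exceeded every sham value, against 22.6% of all genes, and for 13 both fell short of every sham value, against 24.3%, which together is 35.4%, against 46.9% of all genes. The share was 20.5% of the core genes (8 of 39), 39% of the regulators (16 of 41) and 57.9% of the associated genes (11 of 19). It was 57.5% for the top 25% of all genes by level and 47.9% for the next 25%.

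Among the Sm proteins, which form the ring around the U1, U2, U4 and U5 RNAs, and the LSM proteins, which form the ring on U6, the 2 SBS libraries disagreed. The 8 Sm ring genes summed to 352 RPKM in SBS replicate 1 and 559 RPKM in SBS replicate 3, against 339, 427 and 407 RPKM in sham replicates 1, 2 and 3. For SmF, snrpf had 31.5 and 71.0 RPKM in SBS replicates 1 and 3, against 40.7, 52.1 and 44.2 RPKM in sham, so that the SBS libraries enclosed all of sham. A ring member on U6, lsm6, had 24.6 and 53.9 RPKM in SBS replicates 1 and 3, against 24.9, 28.5 and 24.9 RPKM in sham. All 13 ring genes (8 Sm and 5 LSM) had a higher level in SBS replicate 3 than in SBS replicate 1, as did 6503 of the 12381 genes tested. Their median difference was 0.75 on the log2 scale, against 0.06 over all genes tested. With TMM scaling, 13 of 13 ring genes exceeded the sham mean in SBS replicate 3, against 6150 of the 12381 genes tested. In SBS replicate 1, 2 of 13 did, against 6019 of the 12381. The ring genes are short, and the 25% of all genes with the shortest transcripts, 78 to 1348 bases, had a median difference between the same libraries of 0.25, while the 25% with the longest had −0.09. By level, the same median was −0.21 for the lowest 25% of all genes and 0.28 for the top 25%. SBS replicate 3 also had the larger sum of cell cycle and enterocyte markers of the 2 SBS libraries, and the smaller sum of hepatocyte markers, and their part in the difference was not tested.

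**Figure D2:**
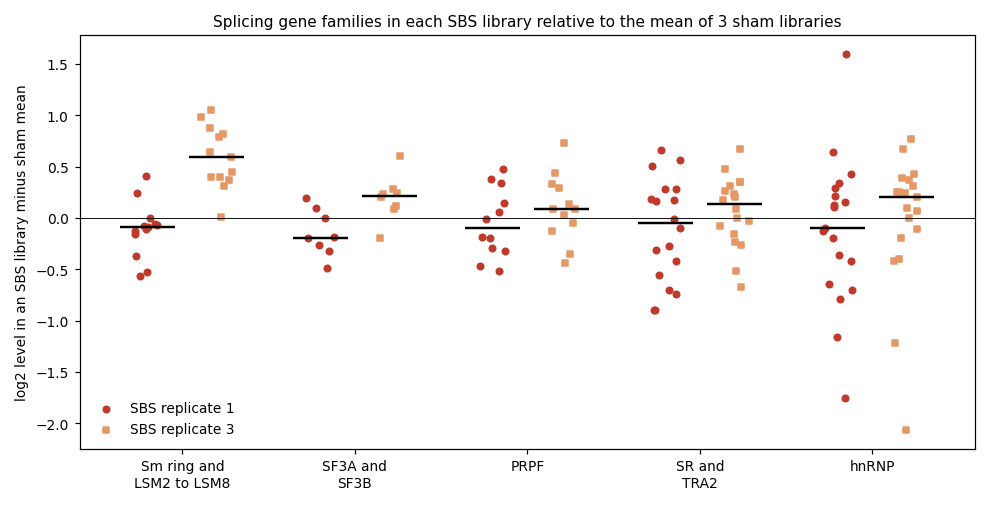
Log2 level of each gene of 5 splicing gene families in SBS replicate 1 (circles) and SBS replicate 3 (squares), relative to the mean of the 3 sham libraries, with a bar at the family median. The medians of the Sm and LSM ring genes are −0.09 for SBS replicate 1 and 0.59 for SBS replicate 3, and those of the SR and TRA2 genes are −0.05 and 0.13.

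The Sm ring genes nearest to a difference were snrpg and snrpe. SmG, encoded by snrpg, had 25.6 and 43.0 RPKM in SBS replicates 1 and 3, against 19.3, 25.997 and 20.3 RPKM in sham, with a log2 fold change of 0.65 ± 0.32 (SE). SmE, encoded by snrpe, had 44.5 and 59.19 RPKM in SBS, against 27.2, 38.7 and 35.6 RPKM in sham, and its log2 fold change was 0.62 ± 0.28. The SBS values of snrpe lay above all sham values, whereas those of snrpg overlapped with sham. In edgeR's quasi-likelihood test the adjusted p was 0.235 for snrpg and 0.209 for snrpe.

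The U2 snRNP gene snrpa1 had the highest log2 fold change of the core. Its product, the A′ protein of U2, binds the U2 RNA together with the B″ protein, the product of snrpb2. In the SBS libraries snrpa1 had 21.8 and 33.2 RPKM, against 11.8, 16.4 and 13.4 RPKM in sham, a log2 fold change of 0.98 ± 0.30 (SE, 95% interval 0.25 to 1.72) with an adjusted p of 0.105 by edgeR's quasi-likelihood test. DESeq2's Wald test gave it an adjusted p of 0.0452 and RUVg one of 0.00517, both under the fold limit. Its partner snrpb2 had 18.9 and 19.6 RPKM in SBS, against 12.1, 16.4 and 13.5 RPKM in sham. The log2 fold change of snrpb2 was 0.46 with a 95% interval of −0.16 to 1.08, and its adjusted p was 0.281 in edgeR's quasi-likelihood test. This gene was chosen after its values were seen. Both genes lay above sham in both SBS libraries, as did 22.6% of all genes, on chromosome 7 for snrpa1 and chromosome 1 for snrpb2. The proteins particular to U1 did not separate the groups: snrpa had 21.7 and 34.0 RPKM in SBS and 31.7, 38.9 and 26.7 RPKM in sham, and snrpc had 28.9 and 30.5 RPKM in SBS and 19.7, 29.2 and 28.7 RPKM in sham.

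The SF3A and SF3B subcomplexes, through which U2 grips the branch point, were the flattest large family. Their 8 genes had log2 fold changes from −0.24 for sf3a1 to 0.31 for sf3b5, a median of 0.01, and no gene with groups apart. The most abundant, sf3b6, whose product sits at the branch point, had 63.5 and 76.8 RPKM in SBS, against 70.8, 76.6 and 69.2 RPKM in sham. Its log2 fold change was −0.04 with a 95% interval of −0.63 to 0.54.

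Among the 12 PRPF genes the log2 fold changes ran from −0.41 to 0.56 with a median of −0.01. The gene for the central scaffold of the spliceosome, prpf8, had 19.4 and 20.7 RPKM in SBS, against 16.8, 22.3 and 20.0 RPKM in sham, a log2 fold change of 0.03 with a 95% interval of −0.65 to 0.70. The highest value in the family belonged to prpf31, which encodes a U4 protein needed to form the tri-snRNP. It had 11.5 and 14.7 RPKM in SBS, against 8.40, 8.497 and 9.74 RPKM in sham, and the groups did not overlap, although the adjusted p of edgeR's quasi-likelihood test was 0.197. The lowest belonged to prpf38b, with 13.01 and 12.02 RPKM in SBS, against 15.5, 13.1 and 21.4 RPKM in sham. The tri-snRNP gene sart1 had 21.9 and 27.0 RPKM in SBS and 22.7, 24.3 and 22.8 RPKM in sham, and sart3, which helps U4 and U6 to pair again after splicing, had 7.16 and 4.73 RPKM in SBS and 5.68, 7.33 and 6.09 RPKM in sham.

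Several associated genes had groups apart at a low fold. The gene rbm8a encodes Y14, a subunit of the exon junction complex that is left on spliced transcripts. It had 81.7 and 94.7 RPKM in SBS, against 48.2, 53.5 and 59.7 RPKM in sham, a log2 fold change of 0.71 ± 0.24 (SE) with an adjusted p of 0.125 in edgeR's quasi-likelihood test. The partner of Y14, encoded by magoh on chromosome 8, had 57.9 and 62.4 RPKM in SBS, against 26.4, 45.5 and 44.5 RPKM in sham, with a log2 fold change of 0.63 and an adjusted p of 0.243. Both partners were thus above sham in both SBS libraries without passing the test, and so were 22.6% of all genes. The other genes of the complex did not all follow. Of 12 exon junction complex genes outside the name rule, magoh among them, 5 had a positive and 7 a negative log2 fold change. Both SBS libraries lay above sham for 2 of the 12 and below it for 2. The log2 fold change was −0.06 for eif4a3 and −0.23 for casc3. The RNA-binding protein rbm22, which contacts the catalytic RNA, had 18.4 and 13.7 RPKM in SBS, against 10.9, 10.5 and 11.2 RPKM in sham.

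The associated gene rbm39a went the other way, with 29.1 and 39.1 RPKM in SBS, against 59.6, 48.4 and 59.9 RPKM in sham, and a log2 fold change of −0.71 ± 0.29 (SE). Its product resembles U2AF65, the protein that binds the pyrimidine tract. U2AF65 itself is encoded by u2af2a and u2af2b. The minor copy u2af2a had 6.74 and 8.64 RPKM in SBS, against 10.8, 9.59 and 10.6 RPKM in sham, and the major copy u2af2b had 46.0 and 43.3 RPKM in SBS, against 34.6, 38.1 and 37.3 RPKM in sham. All 4 CWC genes had positive log2 fold changes, from 0.16 for cwc22 to 0.26 for cwc15, and 3 of the 4 had both SBS libraries above sham, against 22.6% of all genes. The exception, cwc27, had a log2 fold change of 0.23, which was 0.70 without SBS replicate 1 and −0.46 without SBS replicate 3. For cwc22, whose product brings the exon junction complex to the spliceosome, the values were 8.93 and 8.80 RPKM in SBS and 8.28, 7.55 and 7.91 RPKM in sham.

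Of the LSM genes outside the ring on U6, lsm1 stood apart most evenly. Its product takes the place of LSM8 in a cytoplasmic ring that starts the decay of transcripts. It had 12.4 and 12.6 RPKM in SBS, against 7.15, 7.22 and 7.64 RPKM in sham, a log2 fold change of 0.77 ± 0.25 (SE) and an adjusted p of 0.121 by edgeR's quasi-likelihood test. For LSM8, which marks the nuclear ring, lsm8 had 14.2 and 26.6 RPKM in SBS, against 12.5, 15.97 and 18.1 RPKM in sham, and here the groups overlapped. The log2 fold change of −2.00 for lsm14b came from 1 library: it had 0.191 and 0.453 RPKM in SBS, against 0.358, 3.32 and 0.263 RPKM in sham, and the value was 0.10 without sham replicate 2.

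Among the SR proteins the log2 fold changes were spread on both sides of 0, with 9 positive and 9 negative values for the 18 SR and TRA2 genes and a median of 0.02. The most abundant of them, srsf5a, had 164 and 165 RPKM in SBS, against 96.4, 99.2 and 118 RPKM in sham, a log2 fold change of 0.66 ± 0.26 (SE) with an adjusted p of 0.170. At the other end, srsf11 had 45.3 and 53.2 RPKM in SBS, against 97.5, 73.1 and 85.1 RPKM in sham, with a log2 fold change of −0.79 ± 0.29 and an adjusted p of 0.143. The groups did not overlap for either gene, and neither passed edgeR's quasi-likelihood test. Together the 16 SR genes summed to 598 and 635 RPKM in SBS, against 551, 575 and 593 RPKM in sham.

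The lowest adjusted p of all 99 genes belonged to hnrnph3 on chromosome 13 (ENSDARG00000039466). hnRNP H3 belongs to the hnRNP H and F proteins, which bind runs of G. The gene had 6.23 and 6.002 RPKM in SBS, against 14.5, 13.8 and 13.7 RPKM in sham, that is 6.11 ± 0.160 RPKM (SD, n = 2) against 14.0 ± 0.395 RPKM (SD, n = 3). The libraries of each group lay close together and the groups were far apart, with an SBS level 0.437 times that of sham. The log2 fold change was −1.19 ± 0.24 (SE, 95% interval −1.77 to −0.62) and lay between −1.22 and −1.16 when any 1 library was left out. The adjusted p was 0.0506 in edgeR's quasi-likelihood test, 0.0135 in its likelihood ratio test, 0.000121 in DESeq2's Wald test and 0.00756 with RUVg, and the value was under the fold limit in each. In the quasi-likelihood test it lay between 0.150 and 0.194 without 1 sham library, in fits in which no gene at all was called. With library totals alone the log2 fold change was −0.37, with an adjusted p of 0.372 in the same test. hnrnph3 was one of the genes chosen after their values were seen. Its paralogs did not share the pattern: the log2 fold change was 0.69 for hnrnph1 and −0.10 for hnrnph1l.

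The single splicing gene called by the liberal tests, hnrnpa3, was scarce. It had 0.238 and 0.183 RPKM in SBS, against 0.487, 0.899 and 1.59 RPKM in sham, on 10 and 13 counts in the SBS libraries. Its log2 fold change was −2.23 ± 0.73 (SE), with an adjusted p of 0.117 in edgeR's quasi-likelihood test, 0.0388 in its likelihood ratio test, 0.0251 in DESeq2's Wald test and 0.0351 with RUVg. Of the 19 hnRNP genes, 4 had both SBS libraries below all sham libraries and 4 had both above, against 24.3% and 22.6% of all genes. Those above were hnrnpa0b, hnrnpc, hnrnph1 and hnrnpl2. Those below included hnrnpr and hnrnpa1b, both chosen after their values were seen. The levels of hnrnpr were 17.9 and 23.1 RPKM in SBS, against 32.5, 27.1 and 33.8 RPKM in sham. For hnrnpa1b they were 62.8 and 74.2 RPKM in SBS, against 86.5, 92.3 and 118 RPKM in sham. The adjusted p in edgeR's quasi-likelihood test was 0.192 for hnrnpr and 0.281 for hnrnpa1b. The family as a whole was balanced, with 10 positive and 9 negative log2 fold changes, a median of 0.02, and a sum of 1098 and 1234 RPKM in SBS against 1004, 1100 and 1259 RPKM in sham.

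The highest log2 fold changes among the regulators rested on SBS replicate 1. The gene ptbp1b, a copy of the repressor PTBP1, had 19.1 and 7.74 RPKM in SBS replicates 1 and 3, against 5.47, 5.59 and 6.92 RPKM in sham, with a log2 fold change of 1.16 ± 0.41 (SE). It was 1.67 without SBS replicate 3, where edgeR's quasi-likelihood test called it with an adjusted p of 0.0116, and 0.37 without SBS replicate 1. Likewise hnrnpa0a had 54.8 and 20.8 RPKM in SBS replicates 1 and 3, against 18.3, 15.4 and 21.1 RPKM in sham. Its log2 fold change of 1.05 ± 0.44 was 1.59 without SBS replicate 3, with an adjusted p of 0.0157, and 0.19 without SBS replicate 1. With SBS replicate 1 as the lone SBS library, 18.9% of all genes were called, and the lone library was assumed to vary like the others.

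**Figure D3:**
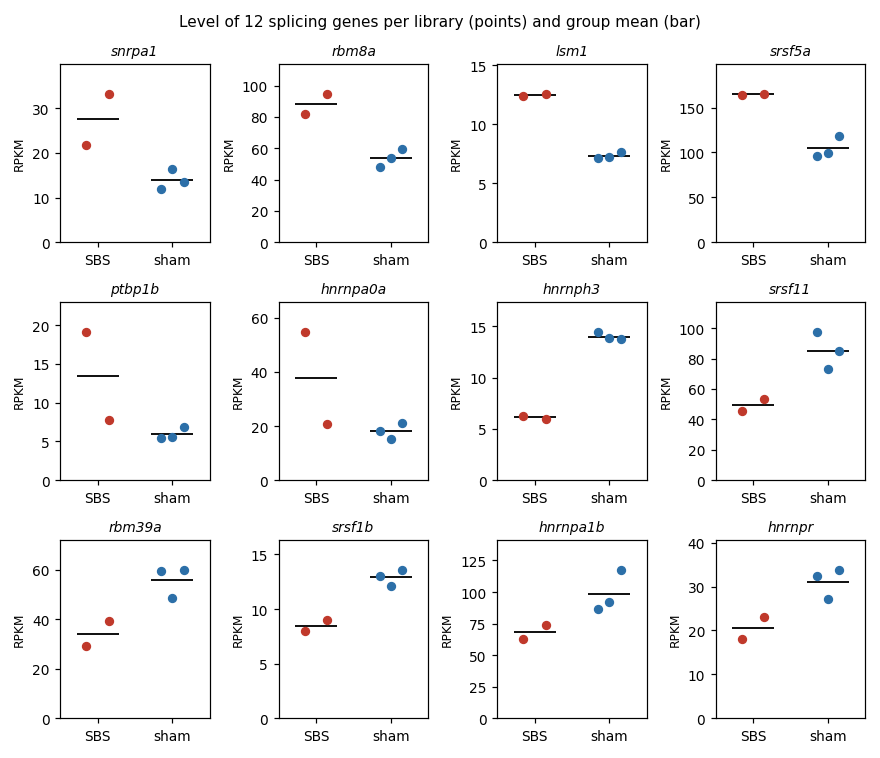
Level in RPKM of 12 splicing genes in the 2 SBS libraries (left) and the 3 sham libraries (right), each point a library and each bar a group mean, on axes that start at 0. SBS lies above sham for snrpa1, rbm8a, lsm1, srsf5a and ptbp1b, overlaps with it for hnrnpa0a, and lies below it for the other 6 genes, and none of the 12 passed edgeR's quasi-likelihood test. The 12 do not stand for the 99 genes: hnrnph3, hnrnpr and hnrnpa1b were chosen after their values were seen. Of the 99, the groups did not overlap for 35.4%, against 46.9% of all genes.

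Many splicing genes have symbols that differ only in a final a or b, and 18 such pairs were taken. Most are copies of a single gene, but prpf38a and prpf38b, and likewise tra2a and tra2b, are separate genes rather than copies. The balance within a pair is a ratio within a library and does not depend on the scaling between libraries. The log2 ratio of a to b did not overlap between SBS and sham for 4 of the 18 pairs (22.2%), against 44.7% of the 1171 a and b pairs among all genes. The log2 fold changes of a and b differed by at least 1 in 2 of the 18 pairs (11.1%), against 46.1% of all pairs. The 1171 pairs were matched by symbol alone and include snrpa and snrpb, which encode different proteins and were left out of the 18. The prpf38 and tra2 pairs were kept among the 18. Ratios of the 1171 used log2 levels with a prior count of 2, and those of the 18 used RPKM. Reads that fit both genes of a pair could have been split or dropped in counting, so these ratios carry that uncertainty.

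One of the 4 pairs was that of SRSF1, the founding SR protein. The major copy srsf1a had 47.4 and 44.5 RPKM in SBS, against 28.4, 39.7 and 29.2 RPKM in sham, and the minor copy srsf1b had 7.95 and 8.996 RPKM in SBS, against 13.02, 12.1 and 13.6 RPKM in sham. The log2 ratio was 2.58 and 2.31 in SBS, against 1.13, 1.71 and 1.104 in sham, and the ratio of the mean levels was 5.43 in SBS and 2.51 in sham. For U2AF65 the log2 ratio of u2af2a to u2af2b was −2.77 and −2.33 in SBS, against −1.69, −1.99 and −1.81 in sham. For prpf38, where a and b are separate genes, the log2 ratio was 0.03 and 0.09 in SBS, against −0.77, −0.26 and −0.87 in sham. For hnrnpa1 it was −0.22 and −0.21 in SBS, against −0.47, −0.47 and −0.57 in sham. Each of these genes kept its own adjusted p over the threshold in edgeR's quasi-likelihood test, and the ratios were not tested.

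In the pairs of ptbp1 and hnrnpa0 the 2 SBS libraries differed widely. The log2 ratio of ptbp1a to ptbp1b was 0.34 and 2.61 in SBS replicates 1 and 3, against 3.16, 3.29 and 2.37 in sham. In SBS replicate 1 ptbp1a was also lower than in sham, with 24.1 RPKM, against 47.4 RPKM in SBS replicate 3 and 48.8, 54.9 and 35.8 RPKM in sham. The log2 ratio of hnrnpa0a to hnrnpa0b was −1.26 and −2.80 in SBS replicates 1 and 3, against −2.11, −3.01 and −2.60 in sham.

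**Figure D4:**
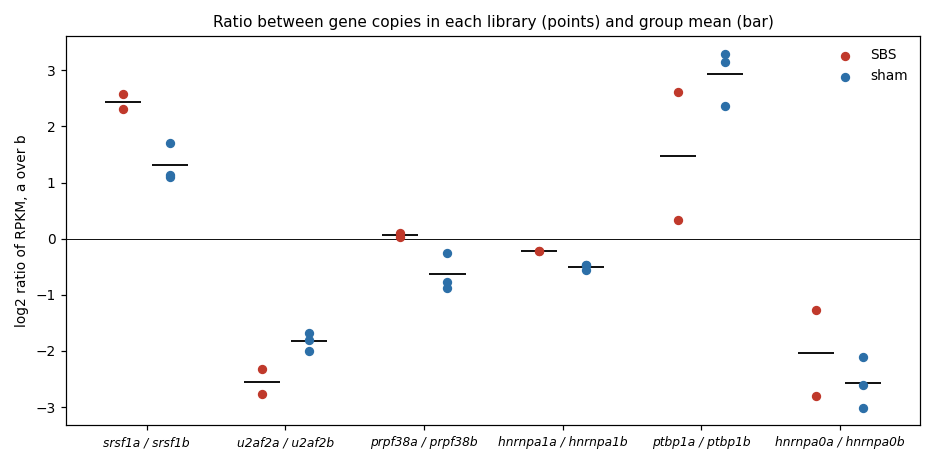
Log2 ratio of RPKM of the a-named to the b-named gene for 6 pairs of splicing genes in each SBS library (left of each pair) and each sham library (right), with a bar at the group mean. The pairs are copies of a single gene except prpf38a and prpf38b, which are separate genes. SBS lies above sham for srsf1, prpf38 and hnrnpa1 and below it for u2af2, while in the ptbp1 and hnrnpa0 pairs the SBS libraries are far apart and overlap with sham.

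The rest of the splicing pathway was read from lists that do not follow the name rule. Of 137 such genes tested, the median log2 fold change was −0.04, the groups did not overlap for 54 (39.4%, against 46.9% of all genes), and 1 was called, against 4.55% of all genes. By list, the median was 0.19 for 7 snRNP genes named snrnp, −0.06 for 43 further U2, tri-snRNP and NTC genes, −0.01 for 4 genes of the minor spliceosome, −0.11 for 12 snRNP assembly genes, −0.03 for 12 exon junction complex genes, −0.27 for 12 SR kinases and SR-related genes and 0.08 for 47 further regulators. None of these lists was called different as a group, since no test of a list was run.

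The gene called was fus on chromosome 3 (ENSDARG00000037968), which encodes an RNA-binding protein of the FET family that binds U1 and regulates splicing. It had 22.7 and 23.9 RPKM in SBS, against 4.12, 5.27 and 4.97 RPKM in sham, that is 23.3 ± 0.873 RPKM (SD, n = 2) against 4.78 ± 0.598 RPKM (SD, n = 3). The SBS level was 4.87 times that of sham, far beyond the spread within either group. It rose by 2.28 ± 0.24 (SE) on the log2 scale, with an adjusted p of 0.0171 by edgeR's quasi-likelihood test. Without sham replicate 1, 2 or 3 its log2 fold change was 2.19, 2.40 and 2.34 and its adjusted p was 0.0851, 0.0833 and 0.105, in fits in which no gene at all was called. A second FET gene, ewsr1a, was chosen after its values were seen. It had 28.1 and 35.6 RPKM in SBS, against 13.7, 13.3 and 18.9 RPKM in sham. Its log2 fold change was 1.06, with an adjusted p of 0.0831 in edgeR's quasi-likelihood test. The other FET genes did not share such a rise. In the same test ewsr1b had a log2 fold change of 0.48 (adjusted p 0.304) and taf15 one of −0.23 (adjusted p 0.663).

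The list of kinases that phosphorylate SR proteins, with SR-related genes, held 10 negative and 2 positive log2 fold changes, where all genes tested held 6188 negative and 6193 positive. The groups did not overlap for 5 of the 12 (41.7%, against 46.9% of all genes). SR protein kinase srpk1a on chromosome 8 had 5.87 and 6.45 RPKM in SBS, against 19.1, 14.4 and 14.7 RPKM in sham. Its log2 fold change of −1.38 ± 0.27 (SE) had an adjusted p of 0.0474 in edgeR's quasi-likelihood test and was short of the fold limit, so that it was not called. The adjusted p of that test was over 0.05 with DESeq2 size factors (0.0513) and with upper-quartile factors (0.0527). It was also over 0.05 when any 1 sham library was left out, in fits in which no gene at all was called. With library totals alone the log2 fold change was −0.56, with an adjusted p of 0.203. The more liberal tests gave an adjusted p of 0.00555 (edgeR's likelihood ratio test), 0.000174 (DESeq2's Wald test) and 0.00447 (RUVg), under the fold limit in each. The CDC-like kinase clk2a had 9.91 and 12.7 RPKM in SBS, against 24.1, 19.4 and 22.6 RPKM in sham, with an adjusted p of 0.0879. For both kinases, which were chosen by smallest p in the list, the groups were apart.

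Of the remaining genes with groups apart, txnl4a, a small U5 protein, had 17.6 and 19.6 RPKM in SBS, against 6.02, 7.33 and 8.27 RPKM in sham, with a log2 fold change of 1.37 and an adjusted p of 0.0541. The NTC gene bcas2 had 23.8 and 23.4 RPKM in SBS, against 39.6, 46.7 and 39.4 RPKM in sham, and the splicing regulator rbm5 had 22.1 and 25.4 RPKM in SBS, against 59.3, 48.3 and 61.3 RPKM in sham. Their adjusted p in edgeR's quasi-likelihood test was 0.0955 and 0.0641. In snRNP assembly, smn1, which encodes the protein that loads Sm rings onto the nuclear RNAs, had 7.33 and 9.24 RPKM in SBS, against 15.97, 10.4 and 18.9 RPKM in sham, with an adjusted p of 0.171. Its complex partner gemin7 had 13.9 and 13.6 RPKM in SBS, against 32.8, 15.2 and 21.9 RPKM in sham. Genes of the minor spliceosome did not separate the groups: rnpc3 had 6.42 and 8.60 RPKM in SBS and 7.91, 5.48 and 6.78 RPKM in sham.

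**Figure D5:**
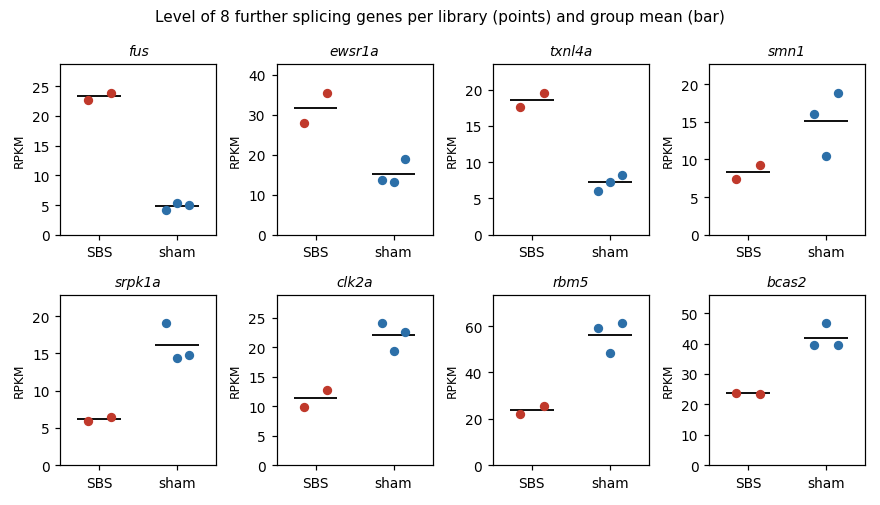
Level in RPKM of 8 splicing genes outside the name rule in the 2 SBS libraries (left) and the 3 sham libraries (right), each point a library and each bar a group mean, on axes that start at 0. The groups do not overlap for any of the 8, and fus, at 22.7 and 23.9 RPKM in SBS against 4.12 to 5.27 RPKM in sham, is the one that was called. The 8 were chosen by smallest p in their list or, for ewsr1a, after its values were seen. Of the 137 pathway genes, the groups did not overlap for 39.4%, against 46.9% of all genes.

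Of the 99 splicing genes, 6 are not protein-coding in the transcript type that the deposited annotation gives for the counted model, a share of 6.06% against 3.43% of all genes. The model of srsf2a, srsf5a and srsf6b is a retained intron, that of prpf39 and rbm39a a transcript subject to nonsense-mediated decay, and that of sf3b2 a processed transcript. SR genes are known to tune their own level by unproductive splicing. The counts do not separate the forms of a gene, so no ratio of productive to unproductive transcripts could be taken. The log2 fold changes of the 6 genes ran from −0.71 for rbm39a to 0.66 for srsf5a, with a median of −0.18. For prpf39 the levels were 31.1 and 39.4 RPKM in SBS, against 46.8, 36.6 and 46.4 RPKM in sham.

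The level of the splicing genes relative to all reads depended on the scaling. They took 0.811% and 0.820% of gene reads in SBS, against 0.407%, 0.524% and 0.418% in sham, and the TMM factors were 1.502 and 1.33 in SBS, against 0.773, 0.919 and 0.707 in sham. When libraries were scaled by their totals alone, the median log2 fold change of all genes was 0.82, that of the splicing genes was 0.88, and 6 of the 99 (ptbp1b, snrpa1, hnrnpa0a, rbm8a, lsm1 and hnrnph1) were called higher in SBS, against 18.5% of all genes called in either direction. Relative to the median of all genes, the splicing genes stood at 0.07 with TMM and 0.06 with library totals, and the core genes at 0.10 and 0.08. The position of a gene above or below that median differed between these scalings for 2 of the 99 genes, with log2 fold changes of at most 0.02 in size. A change of scaling moves the log2 fold changes of all genes by nearly the same amount. These positions could therefore hardly have differed, and nothing is concluded from them. Spike-in RNA of the ERCC set made up 1.72% and 2.43% of the counts in SBS, against 0.810%, 0.663% and 0.791% in sham, and was not used for scaling.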

How the data were processed

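Strand-specific libraries were made from total RNA of proximal intestine with spike-ins. Per the authors, reads were checked with FastQC, trimmed with Trimmomatic, aligned with STAR and counted with HTSeq-count, and no tool version is given in the sources used here. The study names the genome danRer7 and its processing notes GRCz10, so chromosomes are given without positions. The deposited counts are raw, and the RPKM values that the authors deposited were made with edgeR and not used here: RPKM was recomputed from the counts, the deposited transcript length and TMM library sizes. The deposited table also holds log2 fold changes, log2 levels, a likelihood ratio score and p-values of the authors' own comparison, which were not read.

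Of the gene rows, 20 repeated rows were left out, 12398 remained, and 12381 had at least 10 counts over the 5 distinct libraries and were tested with edgeR 4.0.16 (R 4.3.3, limma 3.58.1), by the quasi-likelihood test on TMM-scaled counts with Benjamini-Hochberg adjustment. The SE is the log2 fold change divided by the root of F, and 95% intervals use the prior plus residual degrees of freedom of that fit. Log2 levels used a prior count of 2. edgeR's likelihood ratio test, DESeq2 1.42.0 and RUVg, written by hand with 1 factor and with the 5000 genes of smallest p left out of the controls, were alternatives, as were other scalings and filters, the replicate number as a block, halved counts of SBS replicate 1, all 6 columns and leaving out each library. The scripts were tested on simulated data.

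Genes were named by rule: in each family the highest and lowest log2 fold change and the highest level, and the 3 a and b pairs that differed most. From each pathway list the 2 genes with the smallest p were taken. These gave 34 of the 99 splicing genes and 14 others, and any further gene named was chosen after its values were seen. The splicing genes, the lists and the marker lists were chosen with earlier results of these data known. Of the 99, 98 matched by Ensembl identifier in the gene name table used here. The cell type marker lists not given in the report summed as follows, in SBS replicates 1 and 3 and then in sham replicates 1, 2 and 3. Neutrophil genes had 3147 and 3568 RPKM in SBS, against 67.9, 66.5 and 134 RPKM in sham. The make-up of these SBS sums differed: mpx had 88.7 and 3446 RPKM, while lect2l had 1173 and 9.70 RPKM and mmp9 909 and 4.33 RPKM. Macrophage genes had 2838 and 3123 RPKM in SBS, against 1814, 2320 and 4768 RPKM in sham, mostly from cd74a and cd74b. The 8 macrophage genes tested had a median log2 fold change of 2.11, with 7 positive and 1 negative. Smooth muscle genes had 786 and 3490 RPKM in SBS, against 3918, 2004 and 5061 RPKM in sham. Exocrine pancreas genes had 3171 and 9926 RPKM in SBS, against 16506, 1858 and 49637 RPKM in sham, erythrocyte genes 71.5 and 55.3 RPKM in SBS, against 15.4, 24.9 and 12.4 RPKM in sham, lymphocyte genes 18.1 and 23.6 RPKM in SBS, against 27.8, 41.4 and 39.4 RPKM in sham, and germ cell genes at most 7.93 RPKM in SBS, against at most 6.09 RPKM in sham.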

Additional observations from a re-analysis of the deposited data

How the results depend on the processing

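No gene among the 99 was called in the comparison of SBS with sham under DESeq2 size factors, upper-quartile factors, filterByExpr, no count filter, halved counts of SBS replicate 1 or the replicate block. Called lower was 1 gene (hnrnpa3) with all 6 columns, the likelihood ratio test, DESeq2's Wald test and RUVg, and called higher were 6 genes with library totals alone. Leaving out each library in turn gave 0 to 2 genes called higher (2 without SBS replicate 3: ptbp1b and hnrnpa0a), a core median of −0.083 to 0.28 and a regulator median of −0.10 to 0.087. Library totals alone gave a core median of 0.90 and a regulator median of 0.86, with a median of all genes of 0.82. All genes called numbered 563 in the comparison as reported, 2293 with library totals, 1936 with all 6 columns, 1931, 1902 and 1704 with the likelihood ratio test, the Wald test and RUVg, 2330 without SBS replicate 3, and 0 with the block or without any 1 sham library. The labels of the groups share replicate numbers and name no pairing. The deviations of SBS replicate 1 and sham replicate 1 from their group means correlated at −0.09, and those of SBS replicate 3 and sham replicate 3 at −0.11. With 2 SBS libraries the deviations mirror each other, so these correlations cannot show whether libraries were paired. With the replicate number as a block, 0 splicing genes and 0 genes in all were called, the core median was 0.14 and the regulator median 0.003. In that fit fus kept a log2 fold change of 2.36 with an adjusted p of 0.174, while the adjusted p was 0.264 for srpk1a and 0.301 for hnrnph3. The block left few residual degrees of freedom, so nothing is concluded from its lack of calls. In edgeR's quasi-likelihood test hnrnph3 had an adjusted p of 0.0492 with filterByExpr and 0.0497 with halved counts, still under the fold limit.

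For 58 of the genes named in the text, 928 log2 fold changes under alternatives were tallied. Of these, 859 kept their direction and side of the threshold, 13 passed it, 4 (all of fus) no longer did and 52, in 28 of 58 genes, changed sign. Further genes mentioned in the text were not in this tally. Some of them, such as snrpf, lsm8, cwc27 and prpf8, also changed sign when a library was left out. With library totals alone the reversed values were gemin7 0.090, hnrnpa0l 0.80, hnrnpa1a 0.59, hnrnpa1b 0.30, hnrnpr 0.23, lsm12b 0.48, pdcd7 0.73, prpf38b 0.45, prpf39 0.53, ptbp1a 0.39, rbm39a 0.11, sart3 0.73, sf3a1 0.58, sf3b6 0.77, snrnp35 0.29, snrpa 0.56, srsf11 0.037, srsf1b 0.22, u2af1 0.81 and u2af2a 0.39. They were hnrnpa0l 0.023, sf3b6 0.010 and u2af1 0.041 with DESeq2 size factors, 0.016, 0.0060 and 0.037 for the same genes with upper-quartile factors, and 0.064, 0.087 and 0.13 with RUVg. All 6 columns gave lsm5 −0.037 and sart3 0.036. Leaving out each library gave hnrnpa0l −0.13 to 0.071, lsm14b −2.77 to 0.10, lsm4 −0.065 to 0.44, lsm5 −0.38 to 0.40, lsm6 −0.083 to 1.05, pdcd7 −0.32 to 0.10, ptbp1a −0.95 to 0.029, rnpc3 −0.064 to 0.36, sart1 −0.083 to 0.22, sart3 −0.43 to 0.17, sf3b5 −0.028 to 0.58, sf3b6 −0.18 to 0.090, snrpa −0.58 to 0.068, snrpb −0.16 to 0.39 and u2af1 −0.24 to 0.19. Apart from the scaling shift, the cause of these changes was not tested. With 2 SBS libraries, the 95% interval of 8 of the 99 genes reached beyond the fold limit.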

Other observations

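The difference between the SBS libraries ran with both transcript length and level across the whole table. The median log2 difference of SBS replicate 3 over SBS replicate 1 was 0.25, 0.09, 0.02 and −0.09 over 4 equal bins of all genes from the shortest to the longest transcripts, and 0.43, 0.14, 0.13 and 0.10 for the splicing genes in the same bins, which held 33, 26, 19 and 21 of them. Over 4 equal bins of all genes from the lowest to the highest level, it was −0.21, 0.00, 0.05 and 0.28. The part of length and level in the values of the splicing genes was not tested.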
